A study of Mus musculus with 6 samples.

Results

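Newly made RNA was measured gene by gene in nuclear RNA of mouse embryonic stem cells at the end of a 4 h pulse of 4-thiouridine (4sU), a uridine analogue that cells build into RNA in place of uridine. The description covers the library collected with no washout and the 11840 genes with at least 100 reads in it, of 23281 genes in the deposited table. The cells were a female 129S X Cast hybrid line in which a TetOn promoter stands in for the native Xist promoter on the 129S allele, and a Bgl stem-loop sits at the 3′ end of Xist. Feeder cells were taken off by pre-plating. Xist was induced with doxycycline (1 µg/ml, 17.5 to 20 h) before 500 µM 4sU was added for 4 h in the presence of doxycycline. All 6 libraries of the study carry the same alleles and doxycycline dose. The induction time is given as the range of 17.5 to 20 h for every library, and not for each on its own. All were induced and labelled, and each washout time has 1 library. There was thus no uninduced, unlabelled or replicate library to compare with, and no test between samples was possible.

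Alkylated 4sU is read as C during reverse transcription, so a T-to-C (T>C) change in a read is taken as a mark of RNA made after the label was added. T>C changes from other sources, such as strain variants or read errors, were not measured here. For each gene the authors gave the share of its reads that came from new RNA, as a posterior mean with 5% and 95% quantiles. The new-RNA share is high where nuclear RNA is replaced quickly, by decay or by export to the cytoplasm, and low where older molecules persist. A gene whose synthesis changes during the pulse also changes its share, and RNA that enters from residual feeder cells is counted with that of the stem cells.

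The new-RNA share differed widely between genes. The median was 46.5%, the quartiles were 28.0% and 69.8%, and the 5th and 95th percentiles were 12.6% and 88.1%. Altogether 385 genes were above 90% and 325 genes were under 10%. A share was called high where its 5% quantile lay above 75%, and low where its 95% quantile lay under 25%. By this rule 1855 genes (15.7% of those measured) were high, 2114 (17.9%) were low and 7871 were neither. The library held 28535162 reads, of which 99.4% fell in these genes, and the posterior range of a gene was 4.81 percentage points wide at the median. Weighted by reads, the share was 40.02%, and 37.4% without Gm26917, a predicted gene that took 5.32% of all reads at a share of 85.5%. The assignment of reads from repeated sequence to this gene was not tested, so its share and its part in the read-weighted value are uncertain. These ranges cover the uncertainty within the library and not the spread between cultures.

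The share followed the raw conversions closely. The T>C rate, which is conversions over covered T positions, had a median of 4.68% (5th to 95th percentile 1.32% to 9.16%). It ranked the genes almost as the share did (Spearman rho = 0.99 over 11840 genes that share the library). The T>C rate came to 10.2% of the share at the median, and to between 8.85% and 11.6% from the 5th to the 95th percentile. The 10 lowest genes of at least 1000 reads all had more conversions than that proportion, with a T>C rate of 12.7% to 27.7% of the share. A2m, for example, had a share of 1.28% and a T>C rate of 0.227%, which is 17.8% of its share.

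**Figure D1:**
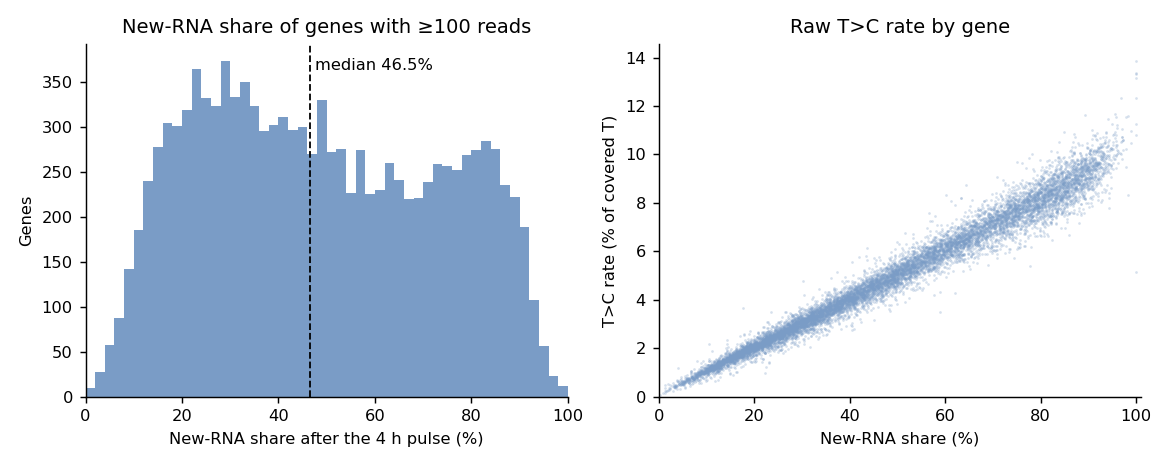
Left, the number of genes (vertical axis) in each step of new-RNA share (horizontal axis, %), with the median of 46.5% as a dashed line. Right, the raw T>C rate (% of covered T positions) against the share, 1 point per gene; the points form a narrow band that rises from near 0 to about 10% as the share goes to 100%, and the histogram has a broad lower hump and a smaller upper hump.

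Among genes with at least 1000 reads, the 10 lowest shares lay between 1.28% and 3.21%. A2m, which encodes a secreted protease inhibitor, stood at 1.28% (posterior 5% to 95% range 0.99 to 1.59). Bnip3, a mitophagy receptor, stood at 1.48% (1.09 to 1.92) and Msln, a cell surface glycoprotein, at 1.86% (1.50 to 2.24). Aldoc, Pgk1 and Pfkl, all enzymes of glycolysis, followed at 2.12%, 2.48% and 3.13%. Col4a5, a basement membrane collagen, had 3.11% and Galk1, which phosphorylates galactose, had 3.21%. The predicted genes Gm26870 (1.94%) and Gm10800 (2.39%) completed the 10 lowest, and reads of near-identical copies could be split among such models, so their values are uncertain.

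The 10 highest shares lay between 95.9% and 100%. Gm42743, a predicted noncoding gene, reached 100% (99.9 to 100). Its T>C rate came to 13.3% of its share, against 12.8% at the 99th percentile of genes. The assignment of its reads was not tested, so its value is uncertain. Mycn, a Myc-family transcription factor, followed at 97.3% (96.02 to 98.4). Dyrk3, a kinase, had 97.3% and Trp73, the p53 relative p73, had 97.1%. The others were the ephrin receptor gene Epha2 (96.97%), the zinc exporter gene Slc30a1 (96.9%), the zinc finger gene Zfp750 (96.3%), the matricellular protein gene Ctgf (96.1%), Enc1 (96.04%) and Ppm1d, a phosphatase induced by p53 (95.9%). The lower ends of these 10 ranges were all at 94.5% or above, whereas the upper ends of the 10 lowest genes were all at 4.03% or below.

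The most abundant RNAs other than Gm26917 were mostly old. Eef1a1 and Eef2, translation elongation factors, had 13.6% and 19.4% new RNA with 269772 and 121382 reads. Hsp90ab1, a constitutive chaperone gene, had 19.2%. Actb, encoding cytoplasmic actin, had 20.0% (19.8 to 20.3) and Gapdh, a glycolytic enzyme gene, had 5.27% (5.06 to 5.48). Among the 5 genes with the longest models, D10Wsu102e had 79.8%, the titin gene Ttn had 40.5%, Syne1, which links nuclei to the cytoskeleton, had 27.4%, and the cytoskeletal linker genes Macf1 and Dst had 18.4% and 24.1%.

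At the threshold of 100 reads the values showed no common level. Among the genes at exactly 100 reads, 5031415H12Rik had 80.8%, Ap5s1 77.9% and B230217C12Rik 31.3%. Among those just outside, at 99 reads, Zfp454 had 90.9%, Zfp963 had 81.9% and Snhg18 had 18.5%.

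The share fell with read count across genes. Its median was 53.5% for the 2333 genes with 100 to 299 reads and 52.5% for 3861 genes with 300 to 999. It was 45.9% from 1000 to 2999 reads, 34.0% from 3000 to 9999 and 22.6% from 10000 to 29999. The 75 genes with at least 30000 reads had a median of 18.5%, and 57 of them were low. The rank correlation of share with reads was -0.20, and with reads per kb of gene model it was -0.28 (11840 genes of 1 library). Precision moved with reads as well, since the median posterior range narrowed from 10.95 points at 100 to 299 reads to 0.58 points at 30000 or more. A gene of few reads therefore needs a more extreme mean to be called high or low.

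Length had a weaker relation of the opposite sign (rho = 0.18). The median share was 22.0% for 466 genes with models of 500 to 999 nt, 36.4% from 1000 to 1999 nt, 47.7% from 2000 to 3999 nt and 52.1% from 4000 to 7999 nt. It did not keep climbing, with 48.0% from 8000 to 15999 nt and 51.0% for the 32 genes of 16000 nt or more. The 57 genes under 500 nt had 45.2%. Short genes were also dense in reads: the genes of 500 to 999 nt had a median of 1053 reads per kb against 218 for those of 4000 to 7999 nt. Within quartiles of reads per kb the relation with Length ranged from rho = 0.01 in the sparsest quartile to 0.21 in the densest. Within quartiles of Length the relation with reads per kb ranged from -0.32 in the shortest to -0.14 in the longest. Read density was thus related to the share in every quartile of Length, and Length most among the densest genes.

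**Figure D2:**
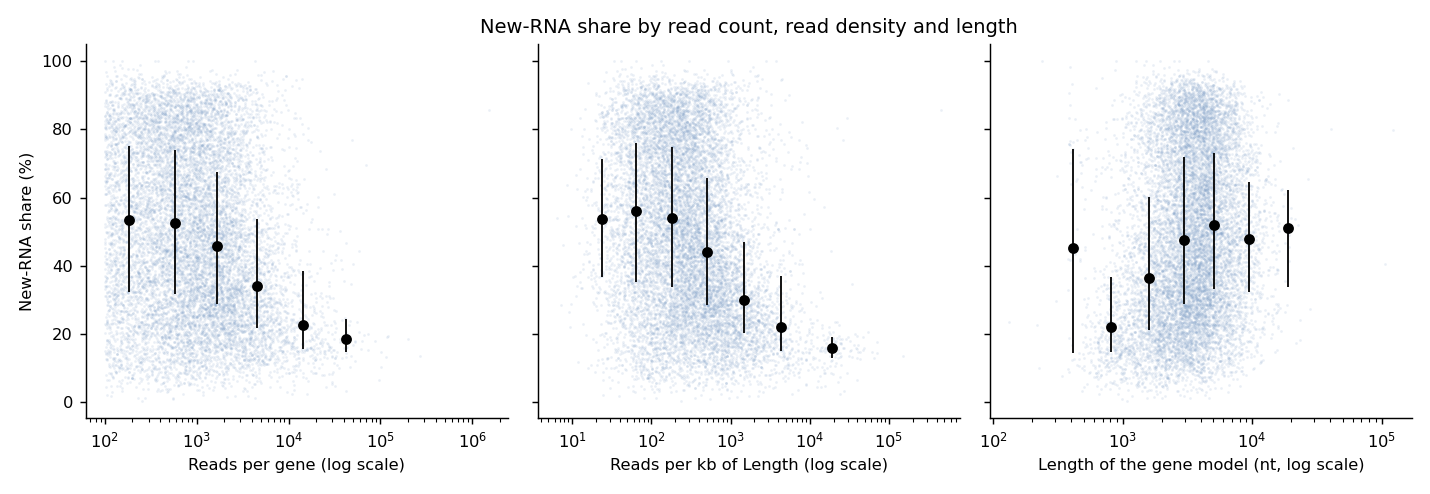
New-RNA share (vertical axis, %) of each gene against its reads, its reads per kb and the Length of its model (log horizontal axes). Black points are medians of the bins given in the text, drawn at the bin's median on the horizontal axis, and black lines run over the middle quartiles; medians fall from 53.5% to 18.5% along the read axis.

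Gene structure went with the share too. By gene ID, 11829 of 11840 genes matched GENCODE M21, which uses the authors' genome build. Of the matched genes 11709 were protein-coding, and 1 annotated transcript was used for each. The 289 protein-coding genes with 1 exon had a median of 76.8% and the 454 with 2 exons had 76.0%. The median then went down at each step: 65.8% at 3 exons, 52.3% at 4 to 5, 45.9% at 6 to 10, 43.3% at 11 to 20, 37.4% at 21 to 40 and 28.1% for the 239 genes with 41 or more. Without the Zfp and histone genes, which have few exons and high shares, the median was 77.1% at 1 exon and 74.7% at 2 exons. Across protein-coding genes the rank correlation of share with exon number was -0.26, against 0.18 with Length and -0.07 with the genomic span.

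The length of the 3′ untranslated region went with the share in the other direction. The median was 31.8% for 1366 genes with fewer than 200 nt and 53.7% for the 2176 genes with 2000 to 3999 nt (rho = 0.24 over 11504 genes). The T content of the transcript, which sets how many positions can carry a conversion, had little relation with the share (rho = 0.04).

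**Figure D3:**
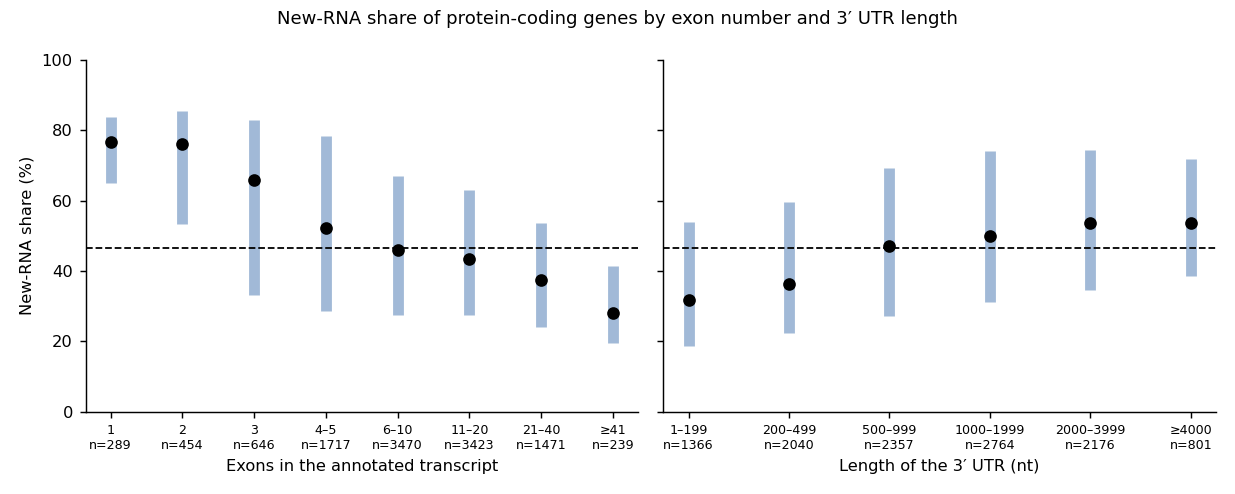
Median new-RNA share (points, %) and interquartile range (bars) of protein-coding genes by exon number (left) and by 3′ UTR length in nt (right); the number of genes stands under each bar and the dashed line is the median of all genes. Medians go down from 76.8% at 1 exon to 28.1% at 41 or more, and up from 31.8% to 53.7% with 3′ UTR length.

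Glycolysis genes had the lowest class median. Of 20 glycolysis genes, 18 were low (90%, against 17.9% of all genes) and 0 were high (against 15.7%), with a median of 7.93%. Aldoa, Tpi1, Ldha and Eno1 lay between 3.34% and 4.76%. Slc2a1, a glucose transporter gene, was the highest of the low members at 23.2%. The exceptions were Eno2 at 50.4% and Hk2, which encodes an inducible hexokinase, at 59.7% (58.2 to 61.2). Glycolysis genes stayed near the bottom when ranked only among genes of like Length and reads per kb (median percentile 1.76, against 1.66 among all genes).

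Genes listed for the respiratory chain and ATP synthase had a median of 14.4%, and 65 of 79 were low. They ran from Cox7a1 at 3.24% to Atp5sl at 50.1%. Cytosolic ribosomal protein genes had a median of 17.3%, and 77 of 87 were low, in a narrow band with quartiles of 15.1% and 20.7%. Rps21 (10.2%) and Rpl39 (10.5%) were the lowest, and Rpl7l1, a paralogue, was the highest at 63.2%. All 7 genes of the TCP1 ring, the chaperonin that folds actin and tubulin, were low, between Cct8 at 15.3% and Cct3 at 23.5%. Of 37 proteasome genes, 21 were low with a median of 20.5%, and of 30 actin, tubulin and cytoskeleton genes 17 were low with a median of 23.4%. None of the genes in these 5 classes was high. For comparison, 17.9% of all genes were low and 15.7% high.

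These 5 classes are also rich in reads, and their ranks were less extreme among genes of like density. Ranked within quartiles of Length and reads per kb, the median percentile was 23.8 for cytosolic ribosomal proteins (10.3 among all genes), 15.99 for the respiratory chain (6.79), 26.3 for the TCP1 ring (11.1), 34.4 for the proteasome (14.4) and 35.8 for the cytoskeleton genes (18.7). Reads of ribosomal protein genes can be shared with their many pseudogene copies, which the counting could split.

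**Figure D4:**
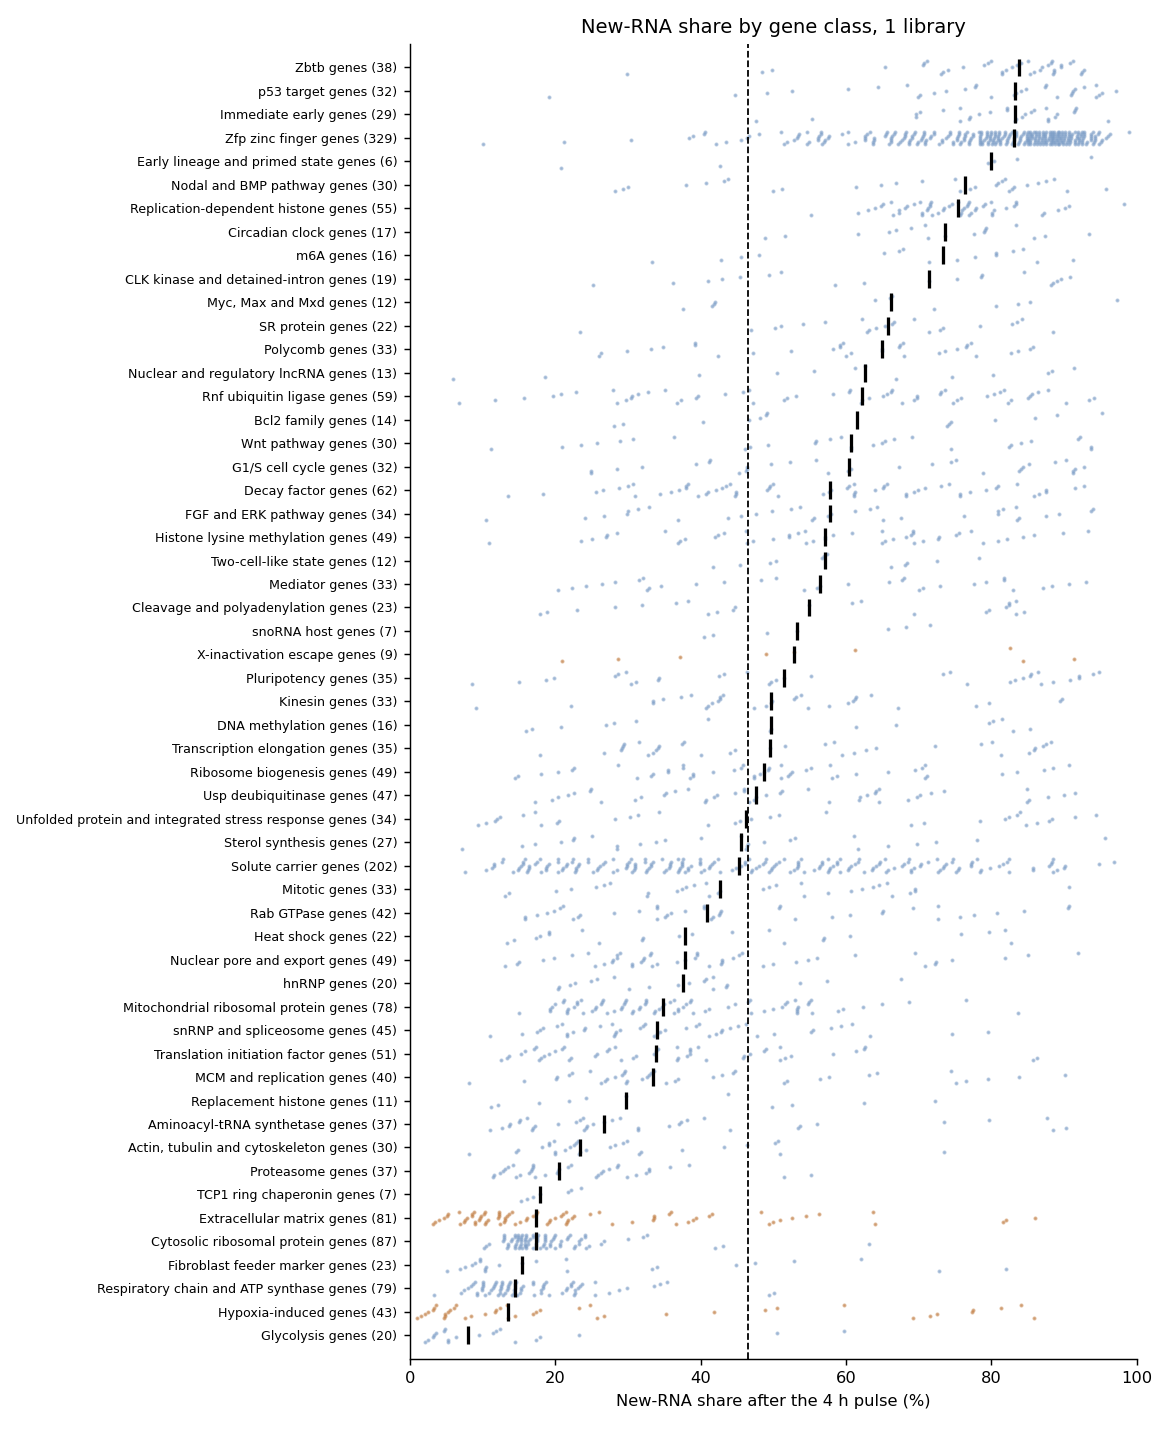
New-RNA share (horizontal axis, %) of every member of each class (1 small point per gene, spread vertically so that points can be told apart), with class medians as black bars, the number of members in parentheses and the median of all genes as a dashed line. Orange classes were listed after the shares had been seen; glycolysis lies lowest with a median of 7.93%, and Zbtb, p53 target, immediate early and Zfp genes lie highest at 83.1% to 83.8%.

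Genes induced by low oxygen were listed after the glycolytic genes had been seen at the bottom, and 17 of the 43 are themselves glycolysis genes. In all, 27 of 43 were low (62.8%, against 17.9% of all genes) and 4 were high (9.30%, against 15.7%), with a median of 13.5%. Without the glycolysis genes, 12 of 26 were low with a median of 25.3%. Ndufa4l2, a mitochondrial protein gene, had 1.00% (0.41 to 1.82). Pdk1, a pyruvate dehydrogenase kinase gene, had 8.43% and P4ha1, a collagen prolyl hydroxylase gene, had 5.57%. Vegfa, the angiogenic factor gene, was high at 77.4%, as were Pfkfb3 (81.3%), Ddit4 (84.1%) and Bhlhe40 (85.9%).

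Hypoxia-inducible factors bind a short core, of which only the form ACGTG was searched for here. To show the start regions of the low genes, the promoters of the 3 lowest hypoxia-induced genes with a match are printed from RefSeq (GRCm38.p6), from 250 bases before to 50 after the start, 5′ to 3′ on the gene's strand. Capitals mark ACGTG on either strand, written CACGT where it lies on the opposite strand. They lie at chr7:138909457-138909756 on the minus strand (Bnip3), chr11:78322823-78323122 on the plus strand (Aldoc) and chrX:106186850-106187149 on the plus strand (Pgk1).
Bnip3: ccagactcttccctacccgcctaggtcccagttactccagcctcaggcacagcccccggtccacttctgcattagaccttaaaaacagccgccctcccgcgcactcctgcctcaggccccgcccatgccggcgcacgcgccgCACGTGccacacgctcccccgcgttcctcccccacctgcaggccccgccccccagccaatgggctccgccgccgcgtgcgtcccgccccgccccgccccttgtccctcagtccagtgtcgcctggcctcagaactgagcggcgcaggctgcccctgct
Aldoc: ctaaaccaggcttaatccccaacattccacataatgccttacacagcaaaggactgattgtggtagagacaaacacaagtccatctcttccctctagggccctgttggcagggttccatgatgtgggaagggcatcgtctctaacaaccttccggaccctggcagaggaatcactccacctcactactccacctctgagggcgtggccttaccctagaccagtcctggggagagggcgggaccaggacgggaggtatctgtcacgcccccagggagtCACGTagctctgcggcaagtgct
Pgk1: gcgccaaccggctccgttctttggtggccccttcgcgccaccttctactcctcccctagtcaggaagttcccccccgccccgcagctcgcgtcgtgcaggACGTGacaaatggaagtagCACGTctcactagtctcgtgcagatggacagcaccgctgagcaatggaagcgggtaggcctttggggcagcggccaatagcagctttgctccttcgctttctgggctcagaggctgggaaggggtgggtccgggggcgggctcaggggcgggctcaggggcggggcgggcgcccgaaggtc
In Bnip3 the core reads the same on both strands, which makes 2 overlapping matches. The core ACGTG was found in 24 of 36 hypoxia-induced genes with a promoter in the table (66.7%), against 2733 of 9151 measured genes (29.9%). The list is of genes induced by low oxygen, so its percentage describes the list and not the new-RNA share. A gene counted if any of its promoters held the core. Among genes with 1 promoter it was in 15 of 24 hypoxia-induced genes (62.5%) and 1927 of 7239 measured genes (26.6%). Counted by promoter and not by gene, 19.6% of all 32851 promoters held it. Over the 9151 genes the median share was 46.5% with the match and 46.4% without it. It was 13.4% with and 15.4% without the match among hypoxia-induced genes. Among 18 glycolysis genes, 11 with the match, it was 6.40% and 11.5%. Among 54 extracellular matrix genes, of which only 7 had the match, it was 12.9% and 17.5%. Among respiratory chain and ATP synthase genes it was 14.4% and 15.2%, and among cytosolic ribosomal protein genes 17.6% and 16.5%.

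Extracellular matrix genes formed another low group. This list too was made after the shares had been seen. Of 81 genes, 54 were low (66.7%, against 17.9% of all genes) and 3 were high (3.70%, against 15.7%), with a median of 17.4%. Bgn, a matrix proteoglycan gene, had 3.45% and Col4a5 had 3.11%. Thbs1, a matricellular protein gene that responds to growth factors, was high at 82.0%. Of 23 genes that mark fibroblasts, the feeder cell type, 15 were low (65.2%) and only Thbs1 was high, with a median of 15.4%. The collagen genes Col5a2 (5.11%), Col6a1 (6.92%) and Col1a1 (8.98%) and the proteoglycan gene Dcn (7.55%) were among the lowest, while the fibroblast transcription factor genes Twist1 (72.8%), Twist2 (62.0%) and Prrx1 (47.4%) were not low.

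The labelled cell type was checked on marker lists. All 10 stem cell markers passed 100 reads, with 2580 to 23154 reads each and 95662 in total. Of 12 fibroblast markers 10 passed, with 114360 reads in total, of which Fn1, the fibronectin gene, held all but 12943. None was at 0 reads, although Lum had 2 reads and Postn had 51. Of 9 markers of primed or differentiating cells, 2 passed (Otx2 with 581 reads and Eomes with 123). The part of residual fibroblast RNA in the shares of matrix genes was not tested, and stem cells also express Fn1 and several collagens.

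At the other end stood genes that respond quickly to signals. Of 29 immediate early genes, 20 were high (69.0%, against 15.7% of all genes) and 0 were low (against 17.9%). All 29 lay above the median of all genes, with a class median of 83.2%. Fos, a subunit of the AP-1 transcription factor, had 91.6% (86.9 to 95.4), Egr1 had 88.7% and Nr4a1 had 91.3%. Dusp1, which switches off MAP kinases, had 82.1%. The lowest were Gadd45b at 47.6% and Maff at 55.4%.

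Many short-lived mRNAs carry AU-rich elements in their 3′ UTR, which bind decay-promoting proteins such as those of the Zfp36 family. The nonamer TTATTTATT on the transcript strand was found in 843 of 11504 annotated 3′ UTRs (7.33%) and in 9 of 29 immediate early genes (31.0%). The windows below show it in capitals, 5′ to 3′ in DNA letters. They come from 4 of the 9 immediate early genes, all with high shares, and from Rps16. The latter is a ribosomal protein gene with 3 matches and a low share. The genes were picked by their shares, the first 4 because they were high and Rps16 because it was low. Their places in the distribution follow from that choice. The genes need not hold the highest or lowest shares among all genes with a match.
Fos: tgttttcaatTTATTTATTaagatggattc
Csrnp1: cactctgaatTTATTTATTtttttatgttt
Zfp36l1: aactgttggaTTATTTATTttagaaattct
Fosl2: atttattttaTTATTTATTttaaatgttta
Rps16: gcttgcttgcTTATTTATTTATTTATTttt
All 3 matches of Rps16 overlap in 1 repeated stretch, while the other windows hold 1 match each. In GRCm38 they lie in the annotated 3′ UTR at chr12:85477103-85477132 on the plus strand (Fos), chr9:119972066-119972095 on the minus strand (Csrnp1), chr12:80108166-80108195 on the minus strand (Zfp36l1), chr5:32156871-32156900 on the plus strand (Fosl2) and chr7:28352827-28352856 on the plus strand (Rps16). The shares of the first 4 were 91.6%, 87.7%, 87.6% and 83.2%, and that of Rps16 was 15.3%, so the same 9 letters occurred near both ends of the distribution.

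Across all genes the median share was 58.3% with the nonamer and 45.02% without it. It was 57.7% for 673 genes with 1 match, 55.8% for 112 genes with 2 matches and 66.5% for 58 genes with 3 or more. Because longer 3′ UTRs hold more matches and had higher shares, the difference was taken within quartiles of 3′ UTR length, where it was 15.7, 10.2, 11.6 and 5.38 points from the shortest to the longest. A match is a description of the sequence and not evidence of binding.

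The Pumilio motif TGTANATA, where N is any base, gave a similar picture. It was found in 2871 3′ UTRs (24.96%), with a median share of 56.4% against 42.5% without it, and within quartiles of 3′ UTR length the difference was 12.3, 13.9, 9.58 and 5.91 points. Among pluripotency genes 15 of 34 held it, and a pair picked for its high shares is shown with the match in capitals.
Fgf4: tatttaaataTGTATATAtggacgcccaat
Tbx3: tgatatctctTGTAAATAggtggaatatga
They lie at chr7:144863050-144863079 (Fgf4) and chr5:119684027-119684056 (Tbx3), both on the plus strand, in genes with shares of 94.0% and 92.1%.

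Targets of p53, the DNA damage-responsive transcription factor, had a median of 83.2%. Of 32, 20 were high (62.5%, against 15.7% of all genes) and 1 low (3.1%, against 17.9%). Mdm2, the ubiquitin ligase gene that limits p53, had 94.8% (94.3 to 95.3) with 14067 reads. Cdkn1a, the cell cycle inhibitor p21, had 92.7%, Bbc3, a pro-apoptotic gene, had 95.2% and Sesn2 had 94.4%. Bax, another pro-apoptotic member, had 49.2%, and Ddb2, a repair gene, was the only low member at 19.2%.

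Zfp zinc finger genes were the largest group with high shares. Of 329 Zfp genes, 205 were high (62.3%, against 15.7% of all genes) and 2 were low (0.61%, against 17.9%), with a median of 83.1%. The 2 low ones were Zfp185 at 10.1% and Zfp106 at 21.2%, and the highest with a narrow range was Zfp566 at 98.9%. Of 38 Zbtb genes, 25 were high (65.8%) and 0 low, with a median of 83.8%. Reads of similar zinc finger paralogues could be split among them in the counting.

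Histone genes differed by type in their medians. Replication-dependent histones, which are made in S phase from intronless genes without a poly(A) tail, had a median of 75.4%. Of 55, 19 were high (34.5%, against 15.7% of all genes) and 0 low. Replacement histones, made throughout the cell cycle from polyadenylated mRNAs, had a median of 29.8%. Of 11, 4 were low (36.4%, against 17.9% of all genes) and 0 high. The types overlapped, since replacement histones reached 72.2% (H2afj) and replication-dependent ones began at 55.2% (Hist1h4d). The pair that encodes the same replacement H3 protein differed, with H3f3a at 11.2% (10.5 to 11.8) and H3f3b at 62.5% (61.7 to 63.2). With a minimum of 1000 reads, which left 9 replacement histones, their median percentile among the remaining genes was 54.5, above the middle, against 27.9 with the minimum of 100. Many replication-dependent histone genes are near-identical, and their reads cannot be assigned with certainty.

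Pluripotency genes, which keep stem cells undifferentiated, had a median of 51.5%. Of 35, 13 were high (37.1%, against 15.7% of all genes) and 4 low (11.4%, against 17.9%). The core factor genes differed. Pou5f1 (Oct4) had 15.02% (14.4 to 15.6) with 9664 reads, Nanog had 73.3% (72.2 to 74.3) with 5328 and Sox2 had 84.4% (83.1 to 85.6) with 4615. Their ranges do not overlap.

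Several factors tied to the naive state, named after their values were seen, were high: Nr5a2 (94.9%), Tbx3 (92.1%), Klf2 (92.0%), Klf4 (90.8%), Zfp42 (88.5%), Klf5 (86.8%) and Esrrb (83.2%). Tfcp2l1, another of them, had 34.3%. The low members were Dppa5a at 8.49%, Pou5f1, Spp1 at 18.7% and Dppa3 at 19.8%.

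Signalling pathways of the stem cell differed among their members. In the Nodal and BMP pathway 14 of 30 genes were high (46.7%, against 15.7% of all genes) and 0 low, with a median of 76.4%. The ligand gene Nodal had 95.8% (94.9 to 96.6), Lefty1, an inhibitor of Nodal, had 90.4% and Smad7, an inhibitory Smad, had 87.5%. The receptor genes Acvr1b and Bmpr1a had 70.5% and 66.9%, the co-receptor gene Tdgf1 had 28.2% and the other inhibitor gene Lefty2 had 37.99%.

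The FGF and ERK pathway had a median of 57.7%. Of its 34 genes 10 were high (29.4%, against 15.7% of all genes) and 1 low (2.94%, against 17.9%). The ligand gene Fgf4 had 94.0%. The feedback inhibitor genes Spry4 (93.7%), Dusp4 (89.3%), Spry2 (87.5%) and Dusp6 (81.6%) were high too, whereas the kinase genes Map2k1 (30.0%), Braf (24.1%) and Mapk3 (10.4%) were under the median of all genes. In the Wnt pathway 8 of 30 were high (26.7%, against 15.7% of all genes) and 3 low (10.0%, against 17.9%). The receptor genes Fzd10 and Fzd6 both had 93.7%, and Wls, which carries Wnt proteins to the surface, had 11.2%. Myc, a regulator of growth, had 85.2% (82.3 to 87.9).

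RNA-processing genes differed by role. SR proteins, which guide splice site choice, had a median of 65.8%, and 21 of 22 lay above the median of all genes. Of the 22, 5 were high (22.7%, against 15.7% of all genes) and 0 low (against 17.9%). Rsrp1 had 88.4% and Pnisr 84.2%, and Srsf9 was the lowest at 23.4%. Of 19 genes for CLK kinases and others with detained introns 8 were high (42.1%, against 15.7% of all genes) and 0 low (median 71.4%). The cyclin L genes Ccnl1 (90.9%) and Ccnl2 (89.6%) led them. Of 16 genes of the m6A pathway 7 were high (43.8%, against 15.7% of all genes) and 0 low (median 73.3%). The reader genes Ythdf2 and Ythdf1 had 91.2% and 86.3%, the methyltransferase gene Mettl3 had 83.0% and the demethylase gene Fto had 42.9%.

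Structural parts of the splicing machinery were lower. The snRNP and spliceosome genes had a median of 34.0%, with 11 of 45 low (24.4%, against 17.9% of all genes). Within quartiles of Length and reads per kb, though, their median percentile was 56.0, above the middle. The hnRNP genes had a median of 37.6%, with Hnrnpa1 at 20.3% and Hnrnpdl at 67.6%. Nuclear pore and export genes had a median of 37.8%, and within those quartiles their median percentile was also above the middle, at 56.5.

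Noncoding genes were mostly above the coding ones. The 103 genes annotated as lincRNA had a median of 75.3%, against 46.3% for protein-coding genes. Of them 40 were high (38.8%, against 15.5% of protein-coding genes) and 10 low (9.71%, against 17.9%). Xist, which coats the X chromosome it silences, had 61.2% (60.7 to 61.6) from 31302 reads, at percentile 66.4 of all genes. Ftx, its noncoding neighbour, had 91.4% (88.2 to 94.1). Neat1, the scaffold of paraspeckles, had 74.6% (73.5 to 75.6), and Malat1, which lies in nuclear speckles, had 18.5% (18.4 to 18.7) at percentile 11.97. The imprinted noncoding genes Meg3 and H19 had 39.8% (38.9 to 40.7) and 5.93% (5.01 to 6.91). Mir17hg, host of a microRNA cluster, had 88.4%. The named noncoding genes therefore covered nearly the whole range, and their posterior ranges do not overlap except those of Mir17hg and Ftx.

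X-linked genes had a lower median share than the genes of every autosome. The median was 32.9% over 408 X-linked genes and 46.9% over 11420 autosomal genes, a difference of -14.1 points. Autosomal medians ran from 40.6% on chromosome 15 to 58.8% on chromosome 13, and the latter was 51.3% without Zfp and histone genes. On the X, 31.4% of genes were low and 7.35% high, against 17.4% and 15.96% on autosomes. This comparison was chosen after the values had been seen.

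The lower share of X-linked genes was present in each quartile of Length and of reads per kb and in each step of exon number. The X-linked median minus the autosomal one was between -9.68 and -17.3 points within quartiles of Length and between -7.96 and -14.2 points within quartiles of reads per kb. Among genes with 1 to 3 exons the medians were 56.4% on the X and 73.3% on autosomes. The median X-linked gene deviated by -8.99 points from genes of like Length and reads per kb. Read density itself was alike, at 286 reads per kb on the X and 278 on autosomes.

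**Figure D5:**
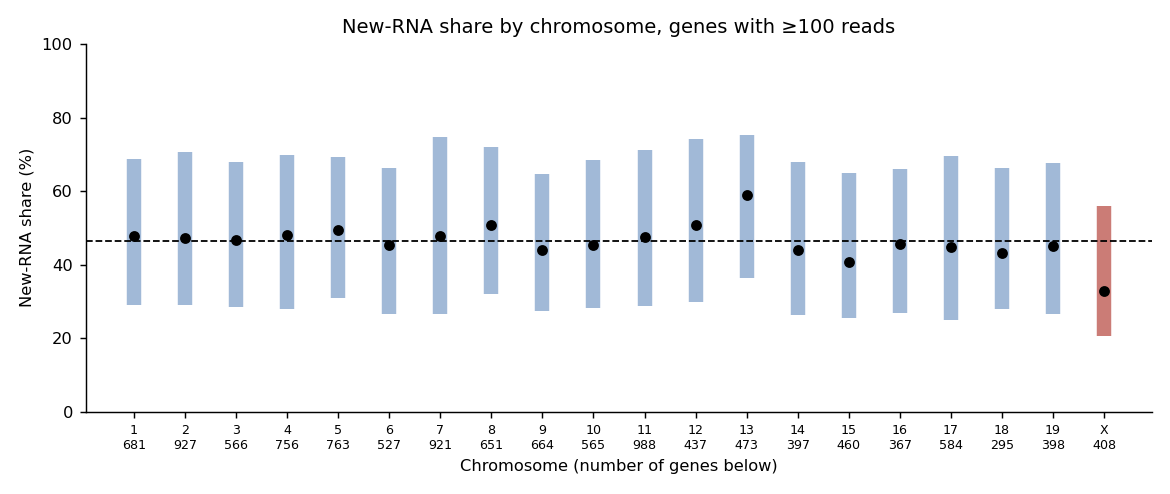
Median new-RNA share (points, %) and interquartile range (bars) of genes by chromosome, with the number of genes under each chromosome and the median of all genes as a dashed line. The X chromosome (red) has a median of 32.9%, under all 19 autosomes, whose medians lie between 40.6% and 58.8%.

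Low X-linked genes came from several functions. Pgk1 had 2.48%, the proteoglycan genes Bgn and Gpc3 had 3.45% and 4.63%, Hprt, a purine salvage gene, had 7.91%, Flna, which crosslinks actin, had 8.17% and the ribosomal protein gene Rps4x had 12.9%. Genes known to escape X inactivation, a list also added after seeing the values, had a median of 52.9% over 9 genes, Xist and Ftx among them. Kdm6a, a histone demethylase gene, had 84.4%, Ddx3x, an RNA helicase gene, had 52.9%, Kdm5c had 37.1% and Eif2s3x had 20.9%. Without these 9 genes the X median was 32.8%. Medians by distance from Xist had no order: 38.7% for 47 genes within 5 Mb, 28.1% for 26 genes from 5 to 10 Mb and 37.0% for 111 genes at 60 Mb or more. All cells had been induced to express Xist from the 129S allele, reads of both alleles were counted together, and induced silencing cannot be told apart here from other properties of X-linked genes.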

How the data were processed

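Nuclear RNA was treated with iodoacetamide and made into stranded total RNA libraries from 1 µg RNA, read as paired ends of 81 nt, per the labels' protocols. Reads were aligned with STAR 2.5.2b to mm10, per the submitters' processing notes. Not given in the sources used here: the program behind the gene table, its strand setting, its annotation release and the model of the conversion rate. The authors deposited read counts per gene without normalization, per the file headers, beside T>C conversion counts and covered T counts printed with 4 significant digits. They also deposited the new-RNA fraction of each gene as a posterior mean, mode and 5% and 95% quantiles, and a Length, all per the file headers; fractions are printed here as percent. The columns without a number in their name were read as the library with 0 min of washout, since the other names carry numbers that match the other washout times without their final 0, and the other 63 value columns were not used.

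Genes with at least 100 reads in this library were kept. Python 3.11.15, pandas 2.3.3 and SciPy 1.17.1 gave medians, counts past the thresholds, Spearman correlations across genes and ranks within the 4 by 4 quartile cells of Length and of reads per kb. The scripts were tested on simulated data. Transcript features came from GENCODE M21, using for each gene its basic transcript with the longest coding sequence. Promoters came from RefSeq. With 1 library there is no replicate check, and no p-value is given. Genes were named by rule: 12 set genes, the 10 highest and 10 lowest shares at 1000 reads or more, the 2 highest and 2 lowest of each class with a posterior range of at most 20 points, and the 5 most abundant and 5 longest genes. Other class members were named as examples after their values were seen. The members, the 52 gene lists and the rule were chosen with earlier results of these data known, and 3 further lists and the X-chromosome comparison were added after seeing the shares. Alternatives were other read minimums, the raw T>C rate, the posterior mode, and ranks within the quartile cells.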

Additional observations from a re-analysis of the deposited data

How the results depend on the processing

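With a read minimum of 300, 1000 or none, the median share was 44.94%, 40.2% or 50.5%. At 1000 reads, which left 5646 genes, 732 were high and 1318 low. The rank correlation with reads was -0.23, -0.25 and -0.18 (minimum 300, minimum 1000, raw T>C rate), with reads per kb -0.33, -0.38 and -0.26, and with Length 0.20 and 0.26 at the 2 minimums. Class ranks are median percentiles of the share. By raw T>C rate 53 of 55 classes kept their side and place; immediate early genes had 80.3 and the unfolded protein response crossed the middle to 52.0. A minimum of 300 moved the unfolded protein response (50.1), sterol synthesis (51.2) and solute carrier genes (51.8) across the middle. A minimum of 1000 moved replication-dependent histones (85.5), hnRNP (46.3), mitochondrial ribosomal protein (42.5), translation initiation (40.9) and ribosome biogenesis genes (61.6), and crossed the middle for replacement histones (54.5), sterol synthesis (57.9), mitotic (60.3), DNA methylation (36.2), solute carrier (55.2) and Rab genes (50.2). Ranks within the quartile cells of Length and reads per kb moved replication-dependent histones (91.4), SR protein (84.2), snoRNA host (82.8), cytosolic (23.8) and mitochondrial (48.7) ribosomal protein, respiratory chain (15.99), proteasome (34.4), TCP1 ring (26.3), ribosome biogenesis (69.4) and cytoskeleton genes (35.8), and crossed the middle for snRNP (56.0), unfolded protein response (56.5), sterol synthesis (55.0), mitotic (57.7) and nuclear pore genes (56.5). The cause of these moves was not tested, apart from the smaller set of genes that a higher minimum ranks. The X-linked rank was 29.7 to 34.8 under these alternatives, against 32.4. No paired analysis was possible because the library stands alone. Posterior ranges cover counting within this library only, the T>C rate of unlabelled RNA was not measured here, and copies of repeated genes carry uncertain reads.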

Other observations

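Several classes near the middle of the distribution spanned much of it. For comparison, 15.7% of all genes were high and 17.9% low. Of 34 genes of the unfolded protein and integrated stress responses, 10 were high and 10 low, with a median of 46.2%. The low members were chaperones of the endoplasmic reticulum and enzymes of serine metabolism, such as Pdia4 (9.41%), Hsp90b1 (10.5%), Phgdh (15.5%) and Calr (20.5%). The high members included the transcription factor genes Atf4 (83.6%) and Xbp1 (82.4%), the phosphatase cofactor genes Ppp1r15a (84.7%) and Ppp1r15b (91.5%), and Trib3 (88.4%). Among 22 heat shock genes, 3 (13.6%) were high, close to the share of all genes, and 7 (31.8%) low. The constitutive chaperone gene Hsp90aa1 had 13.4%, and the inducible cochaperone gene Dnajb1 had 82.7%. Sterol synthesis genes had a median of 45.5%. Srebf2, the regulator of the pathway, had 15.4% and Tm7sf2 had 7.15%.

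Writers and erasers of DNA methylation also differed. The methyltransferase genes Dnmt3b, Dnmt3a and Dnmt1 had 16.8%, 20.8% and 28.1%, and Dnmt3l, a cofactor without catalytic activity, had 16.02%. Of the demethylase genes, Tet1 had 31.2%, Tet3 80.2% and Tet2 85.3%. Among 62 RNA decay factors (10 or 16.1% high, close to the share of all genes, 2 low, median 57.8%), the exonuclease gene Xrn2 had 18.4% and Xrn1 had 38.3%, and the deadenylation-promoting genes Btg2 and Tob1 had 91.5% and 86.6%. Among 32 genes of the G1/S transition 11 were high (34.4%, against 15.7% of all genes) and 0 low. The cyclin genes Ccnd1 and Ccnd3 had 24.9% each, and the replication licensing genes Cdc6 and Cdt1 had 84.0% and 88.7%. Of 33 mitotic genes 3 were low (9.09%, against 17.9% of all genes) and 1 was high (3.03%, against 15.7%). Ccnb2 had 13.7% and Wee1, an inhibitor of mitotic entry, had 90.7%. These genes were picked after their values were seen, and the differences are descriptions of 1 library.

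Noncoding models at the extremes include predicted genes with very few conversions. Of the 10 low lincRNA genes, Gm26619 had 0.36% and Gm17300 had 1.27% new RNA. Gm42418 had 76.7% from 48704 reads and AY036118 had 2.39% from 703 reads. The assignment of reads from repeated sequence to such models was not tested, and these values are uncertain.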
